A study of Mus musculus with 24 samples.

Results

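RNA bound to the protein STAU2 in the developing mouse cortex is listed in a table of peaks, and 1136 of its rows are called 5' UTR and carry a gene symbol. These rows were chosen by that location call alone, with no measured value, out of 14297 rows assigned to a gene (7.95%) and 18975 rows in all. A row is a merged peak on 1 strand, with its gene, its position and a count in each library. The 1136 rows come from 1122 merged peaks and 1050 genes. Of those genes 977 have 1 row called 5' UTR, 63 have 2 and 10 have 3 or more. A row called 3' UTR exists for 599 of the genes, a row called Exon for 435 and a row called Intron for 26, while 275 genes are listed by 5' UTR rows alone. A further 4 rows called 5' UTR have no gene symbol and were left out.

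The tissue was brain cortex of C57BL/6 mouse embryos at the embryonic stages E11.5 and E13.5 and, later, E15.5 and E17.5 (days of gestation), and the labels name no genetic change or treatment. At each stage 3 libraries were made from RNA precipitated with an antibody against STAU2, and the design asks how the bound RNAs differ between stages. The other 12 libraries of the series are inputs, and they were not analysed here. The labels give each stage and replicate number to both an immunoprecipitation and its input, and the 12 columns of the table were read as the immunoprecipitations because it lists peaks. Without input, a change between stages mixes the amount of an RNA with its binding, and in whole tissue fewer cells of a type and less RNA per cell cannot be told apart.

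The 5' UTR is the stretch of an mRNA between the cap and the start codon, which the small ribosomal subunit scans before translation begins. Paired stems, upstream start codons and binding sites for proteins in this stretch can set how much protein an mRNA yields. STAU2 binds double-stranded RNA, travels with mRNAs into the dendrites of neurons and is passed unequally to the daughters of dividing cortical progenitors. Many described Staufen sites are stems in 3' UTRs, so rows at the other end of the mRNA show a less described portion of the bound RNA.

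Short stretches of the rows on which the results turn show what this portion looks like. They are read 5' to 3' along the mRNA from the GENCODE vM21 transcripts of GRCm38, with T standing for U. The first pair holds elements known to act in 5' UTRs. Capitals mark the 6-base loop of the iron-responsive element in Fth1, which codes for the ferritin heavy chain, and a run of 8 A in the A-rich 5' UTR of Pabpc1, which the poly(A)-binding protein it codes for is known to bind.
Fth1: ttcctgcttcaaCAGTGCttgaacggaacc
Pabpc1: ttaaaaaatccAAAAAAAAtctaaaaaatc
The Fth1 stretch lies at chr19:9982732-9982761 on the plus strand and the Pabpc1 stretch at chr15:36608874-36608903 on the minus strand. The loop motif CAGTGC, searched on the transcript strand, was in 16 of 1078 windows of 60 bases from rows called 5' UTR (1.48%), against 2.02% of windows from rows called 3' UTR and 2.01% from rows called Exon. The run AAAAAAAA was in 6 of those 1078 windows (0.557%), against 1.57% for 3' UTR rows and 0.147% for Exon rows. Both motifs were therefore no commoner in these rows than in 3' UTR rows.

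The next sequences are the 30 bases of annotated 5' UTR with the lowest predicted folding energy in rows that fell, rose or stayed level with stage, and capitals mark the bases that RNAfold pairs.
Hmga2: gcctttGCGGAGAGagcaaccCTCTCCGCc
Igf2: CCGGCAGaaGGGCcttcGCCCgCTGtTCGG
Gli3: agtccGCCTGCcGCTccgccGGCGCAGGTc
Nfix: CCCCTCtgTGCaatggaGCGtGGGGGGcgg
Mapt: cttCTGtccTCGcCttctGtCGAttatCAG
Sez6: taCCGCGgCCCCGaccCGGGGCGCGGccgc
Stau2: ctCGCCCatGTGGAgccgTCTGCcGGGCGt
The first 3 belong to rows that fell and lie at chr10:120476428-120476457 (minus strand) for Hmga2, chr7:142658413-142658442 (minus) for Igf2 and chr13:15464049-15464078 (plus) for Gli3. The next 3 belong to rows that rose and lie at chr8:84773547-84773576 (minus) for Nfix, chr11:104231578-104231607 (plus) for Mapt and chr11:77931020-77931049 (plus) for Sez6. The Stau2 stretch lies at chr1:16519186-16519215 (minus). Predicted energies were -14.4, -13.9 and -12.0 kcal/mol for Hmga2, Igf2 and Gli3, -12.6, -2.3 and -19.1 for Nfix, Mapt and Sez6, and -13.0 for Stau2. Each energy is the lowest over a 5' UTR stretch whose length differs between rows, and only a few chosen rows are shown. Any link between stem strength and the direction of change was not tested. These folds are predictions on the letters of the annotation, and no structure was measured.

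The label fitted the annotation in part. All 1136 rows overlapped their gene on the stated strand and held at least 1 base of annotated 5' UTR, against 0 of the rows called Exon. The median row was 345 bases wide (range 145 to 758) and held 103 bases of annotated 5' UTR (quartiles 50 and 166), which is 31.7% of its width. Only 313 rows had more 5' UTR than other sequence, 165 rows had under 30 bases of it, and 727 rows also held coding bases. An annotated transcript start lay inside 39.6% of the rows, against 2.67% of 3' UTR rows and 9.35% of Exon rows. A start codon lay inside 57.0% of them, against 0.552% of 3' UTR rows and 0.287% of Exon rows. The Exon share is low largely by the call itself, since no row called Exon held a base of annotated 5' UTR. The centre of a row fell in an intron in 405 cases, in a 5' UTR in 378, in a coding exon in 281, in a noncoding exon in 55 and outside the gene in 17. Most rows therefore mix 5' UTR with intron or coding bases.

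Their sequence set them apart from the rest of the table. In the central 60 transcript bases the median GC content was 63.3%, against 48.3% in 6569 rows called 3' UTR and 52.5% in 5430 rows called Exon. The median predicted folding energy of those bases was -15.55 kcal/mol, against -10.1 in 3' UTR rows and -11.4 in Exon rows. Rows with a transcript start inside had a median GC of 65.0% and an energy of -16.5 kcal/mol. The repeat GGCGGCGGC, searched on the transcript strand, was in 2.13% of the windows, against 0% of 3' UTR and 0.239% of Exon windows. These are descriptions of sequence, with no test.

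Gene-row totals were 4688215 to 6374892 counts per library, and the 1136 rows took 147542 to 390758 of them, with a median of 29 to 97 counts per row. The E11.5 libraries stood apart: rows called Intron held 61.0% ± 4.17 of their gene-row counts (SD, n = 3), against 25.9% to 32.4% at the later stages. Their TMM scaling factor averaged 0.528, so that CPM (counts relative to the TMM-scaled library size) and log2 changes are relative to the median row. With scaling by gene-row totals instead, the median log2 change of all rows was 1.20 for E17.5 against E11.5, in place of 0.02. For E13.5 against E11.5 it was 1.21, in place of 0.05. Of the markers of cortex, 7 of 8 had rows, with a summed level, in CPM of the unscaled totals, of 824 to 1247 in E11.5 libraries, 3040 to 3122 in E13.5, 3046 to 3845 in E15.5 and 1886 to 2180 in E17.5 libraries. Marker sums here and below use unscaled totals, so at E11.5 they are lower than on the TMM scale of the rows. Differences of these sums between E11.5 and later stages partly reflect that scaling. Of the 1136 rows called 5' UTR the filter on low counts kept 1126 for testing. Of those, 49 overlapped another gene on the same strand and 145 a gene on the other strand. The library kit marks strand, but the use of strand in counting is not given in the sources used here.

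How much of the bound RNA lay in these rows depended on which other rows were counted. Rows called 5' UTR held 3.35% ± 0.683 of gene-row counts in E11.5 libraries, 5.54% ± 0.371 in E13.5, 5.68% ± 0.541 in E15.5 and 4.79% ± 0.370 in E17.5 libraries (SD, n = 3 each). With the intron rows left out the shares were 8.55% ± 1.02, 8.19% ± 0.405, 7.66% ± 0.608 and 6.61% ± 0.391 in the same order of stages. The lower share at E11.5 was thus not seen without intron rows, and then all 3 E17.5 libraries lay below those of E11.5 and E13.5. It was also not seen with only the 10 rows of highest mean count in the whole table left out. The shares then were 8.21%, 7.98%, 7.53% and 6.45% from E11.5 to E17.5. The 10 highest 5' UTR rows of each library, chosen in each library by itself, held on average 38.2% of its 5' UTR row counts at E11.5. At the later stages they held 27.5% to 29.7%. The median 5' UTR row had 12.5, 11.8, 11.1 and 9.30 CPM at the 4 stages, while the median of all rows stayed between 11.6 and 12.3 CPM. Of the 1126 rows, 758, 753, 726 and 635 had at least 5 CPM in all 3 libraries of a stage, in the order of the stages.

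The rows of highest mean CPM belonged to Tmsb10, Pabpc1, Nedd8, Rps27, Rpl13, Ywhaz, Rps27a, Rpl27, Gm20721 and Rpl31. CPM per row is not per length and gives no ranking between genes. Tmsb10, which codes for the actin-binding peptide thymosin beta 10, had 5709, 4231 and 7907 CPM at E11.5, 2879.8, 3195 and 3151 at E13.5, 5275, 3023 and 3592 at E15.5 and 4341, 4435 and 2924 at E17.5. Its stages overlapped, and the log2 change of -0.61 ± 0.35 for E17.5 against E11.5 did not pass the test (adjusted p = 0.153). Here and below, the adjusted p is that of edgeR's quasi-likelihood test with Benjamini-Hochberg adjustment over 14106 rows, the threshold is 0.05, and ± after a log2 change is its standard error. Nedd8, a ubiquitin-like modifier, averaged 1478 ± 187 CPM at E17.5 and 1361 ± 272 at E11.5, with a log2 change of 0.12 ± 0.36 (adjusted p = 0.801), and its row overlaps Gmpr2 on the other strand. Gm20721 had 494, 816 and 729.8 CPM at E17.5, against 429.5, 1727 and 431 at E11.5, so that 1 library of E11.5 stood far above the other 2 and the E17.5 libraries lay between, and its row overlaps Gnas on the other strand.

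**Figure D1:**
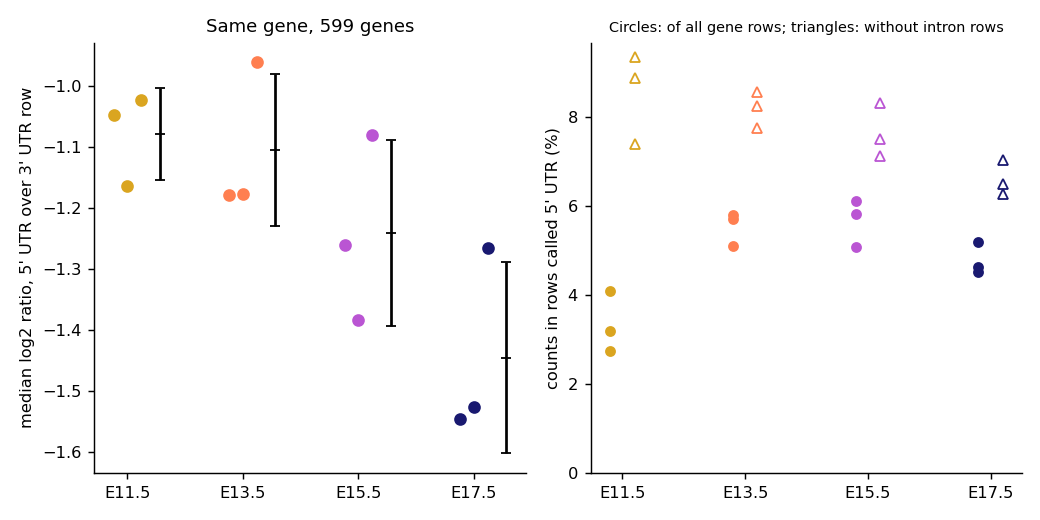
Left, the median over 599 genes of the log2 ratio of summed 5' UTR row counts to summed 3' UTR row counts of the same gene. There is 1 dot per library, and the mean ± SD of each stage is in black. Right, the percentage of counts in rows called 5' UTR, of all gene rows (circles) and with intron rows left out (triangles), 1 symbol per library. The ratio lies between -1.16 and -1.02 at E11.5 and between -1.55 and -1.27 at E17.5, and the triangles are lowest at E17.5.

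E17.5 against E11.5 compares the late cortex, in which the birth of neurons nears its end, with the early neuroepithelium. Of the 1126 rows tested, 613 changed (54.4%), 202 up and 411 down, beside 51.9% of all 14106 rows, of which 25.8% rose and 26.1% fell. The share of rows changed was thus near that of the whole table, and the split by direction was not. The median log2 change was -0.51 (quartiles -1.60 and 0.71), against 0.02 for all rows, 0.17 for rows called 3' UTR, -0.03 for Exon and -0.12 for Intron. The split rested on scaling: with scaling by gene-row totals 486 rows rose and 161 fell, while the median of 5' UTR rows minus that of all rows was -0.54, beside -0.53 with TMM. Against E13.5 in place of E11.5, 322 rows changed at E17.5, 76 up and 246 down, beside 28.6% of all rows, with a median of -0.38, against -0.01 for all rows. The libraries of E17.5 and E11.5 did not overlap for 659 rows, and 57.0% of all rows had no overlap. Rows with a transcript start inside had a median of -0.23 (447 rows, 85 up and 139 down), and rows without one had -0.63 (679 rows, 117 up and 272 down).

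**Figure D2:**
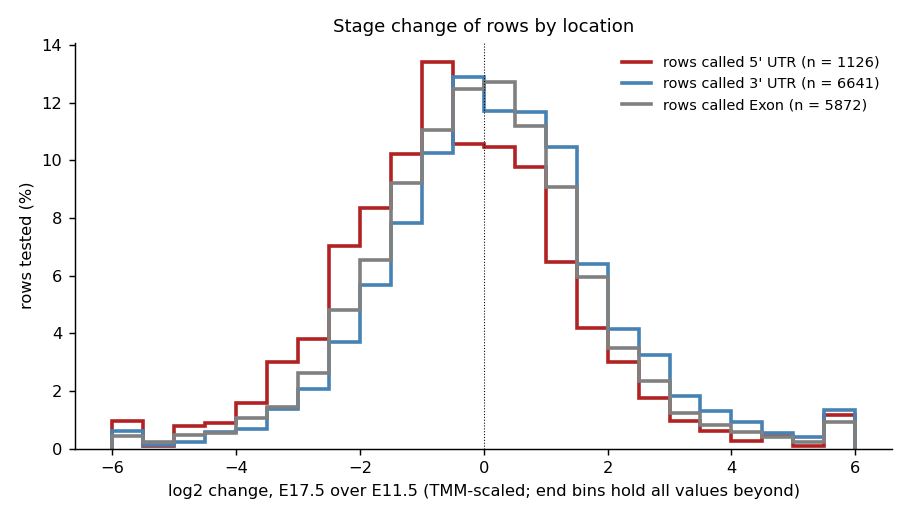
Percentage of rows tested (vertical axis) by log2 change of E17.5 over E11.5 (horizontal axis), with a line each for rows called 5' UTR, 3' UTR and Exon, and end bins that hold all values beyond. The 5' UTR rows sit lower, with a median of -0.51, against 0.17 for 3' UTR rows and -0.03 for Exon rows.

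Genes of early progenitors and growth control led the falls. Hmga2, a chromatin protein of young neural progenitors (chr10:120476338-120476482), had 61.9, 91.1 and 86.8 CPM at E11.5, 2.09, 2.02 and 2.68 at E13.5, 0.490, 1.37 and 0.223 at E15.5 and 0, 0 and 0 at E17.5. No count was left in any E17.5 library (0 counts, against 681), so the row was at least 466-fold lower at E17.5, with the floor set at 3 counts over the 3 libraries of a stage (adjusted p = 9.62e-10). Both 3' UTR rows of Hmga2 fell too, from 1297 ± 344 and 628 ± 153 CPM at E11.5 to 0.362 ± 0.627 and 0.181 ± 0.313 at E17.5. Their fitted log2 changes of -11.81 and -11.69 rest on values near 0. They cannot be ranked against the bound of the 5' UTR row. Hmgb3, the other row of the list of early neuroepithelium and timing, had 161, 110.3 and 159.7 CPM at E17.5, against 637, 392 and 441 at E11.5, and fell by 1.77 on the log2 scale (adjusted p = 0.000685). That call ended under scaling by gene-row totals.

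Igf2, which codes for a growth factor of embryonic tissue (chr7:142658401-142658821, all of it annotated 5' UTR), had 1304, 2283 and 2529 CPM at E11.5, 226, 98.2 and 142 at E13.5, 26.1, 35.9 and 7.24 at E15.5 and 2.85, 4.52 and 5.03 at E17.5. Every stage lay below the one before it without overlap, and the log2 change of E17.5 against E11.5 was -8.94 ± 0.65 (adjusted p = 9.15e-10). Its 3 rows called 3' UTR changed by -8.57 to -7.93. Reads of Gm49394 on the same strand cannot be told apart from those of this row. Igf1, the related growth factor, had 0 counts at E17.5, against 89 at E11.5, and was at least 60.9-fold lower (adjusted p = 3.44e-07), with Igf1os on the other strand. Markers of meninges and mesenchyme, all 7 of 7 with rows, had a summed level of 127 to 145 CPM of the unscaled totals in E11.5 libraries, 348 to 390 in E13.5, 43.8 to 51.9 in E15.5 and 4.24 to 4.94 in E17.5 libraries. Their part in the falls of Igf2 and Igf1, whose values are TMM-scaled, was not tested. Snai2, a zinc finger repressor known from neural crest, had 1 count at E17.5, against 137 at E11.5, which in CPM is 281-fold (95% exact interval 49.7 to 11194) lower at E17.5. Apela, a ligand of the apelin receptor whose row overlaps Gm45886 on the same strand, had 2 counts at E17.5, against 134 at E11.5, which is 138-fold (95% exact interval 37.4 to 1148) lower. Both rows were already low at E13.5, with 1.92 ± 1.61 CPM for Snai2 and 0.477 ± 0.509 for Apela.

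For reading the gene lists, the 1126 rows called 5' UTR had a median of -0.53 relative to all rows, with 17.9% up and 36.5% down. Of 11 rows of growth factor, Wnt, Hedgehog and Notch signalling, 9 fell and none rose, and the list's median was -1.85 relative to all rows. Scaling by gene-row totals left 5 lower and 1 higher. Gli3, a transcription factor of the Hedgehog pathway that patterns the cortex, has 2 rows there. The row at chr13:15463991-15464135 had 12.96, 10.2 and 12.03 CPM at E11.5, 2.50, 3.04 and 3.58 at E13.5, 0.979, 2.19 and 3.12 at E15.5 and 0.168, 0.362 and 0 at E17.5. Only 3 counts were left at E17.5, against 103 at E11.5, which is 70.5-fold (95% exact interval 23.5 to 348) lower. The second row, at chr13:15613773-15614177, averaged 41.8 ± 12.8 CPM in E11.5 libraries, 11.2 ± 3.08 in E13.5 libraries, 8.23 ± 3.10 in E15.5 libraries and 2.74 ± 0.657 in E17.5 libraries, a log2 change of -3.92 ± 0.43 for E17.5 against E11.5 (adjusted p = 2.16e-07). The remaining falls were of Rspo3, Dvl3, Fgfr2, Smad6 and Fgfr1op2, which the list holds by its name. Vegfa and Sufu did not pass, with log2 changes of 0.15 and -0.89.

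All 5 rows of radial glia and progenitors fell, with a median of -3.74 relative to all rows, and 3 of them fell under scaling by the total. They are the Gli3 rows and those of Emx2, Sox2 and Ccnd2. Emx2, a homeodomain factor of cortical progenitors, had 39.5, 53.9 and 35.7 CPM at E11.5, 22.5, 18.5 and 29.9 at E13.5, 17.4, 13.99 and 16.6 at E15.5 and 4.70, 2.53 and 2.51 at E17.5. Its E17.5 libraries lay below those of every other stage, with a log2 change of -3.72 ± 0.40 (adjusted p = 1.43e-07). Sox2, a factor of neural stem cells whose row overlaps Sox2ot on the same strand, changed by -1.55 ± 0.45 (adjusted p = 0.00683). Otx2, a homeodomain factor of the early forebrain and of choroid plexus, had 0 counts at E17.5, against 82 at E11.5, and was at least 56.1-fold lower at E17.5. Choroid plexus markers with rows were Ttr and Otx2 (2 of 4). In CPM of the unscaled totals they summed to 5.34 to 10.3 in E11.5 libraries and 520 to 695 in E13.5. The sums were 75.2 to 162 in E15.5 and 1.49 to 3.56 in E17.5 libraries. Because they hold Otx2 itself, they cannot show the part of choroid plexus in the Otx2 values, which was not tested.

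Transcription factors as a whole split, with 9 of 39 rows up and 19 down, and a median of -0.87 relative to all rows. Lef1, which carries Wnt signals in the nucleus (chr3:131110894-131111455), had 30.6, 38.7 and 25.2 CPM at E11.5, 15.4, 18.2 and 25.2 at E13.5, 10.5, 16.3 and 10.8 at E15.5 and 1.01, 0.723 and 1.73 at E17.5. The E17.5 libraries lay far below the other 9, and the log2 change was -4.73 ± 0.45 (adjusted p = 2.83e-08), with Gm43352 on the other strand. Chromatin modifiers were similar, with 4 of 26 rows up and 12 down, a median of -0.82 relative to all rows. Tet1, which oxidises methylated cytosine, had 0.504, 0.723 and 0.314 CPM at E17.5, against 17.4, 7.59 and 10.5 at E11.5, and a log2 change of -4.50 ± 0.61 (adjusted p = 2.98e-06). Under scaling by gene-row totals the splits were 17 up and 13 down for transcription factors and 9 up and 5 down for chromatin modifiers.

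Cell cycle and DNA replication rows fell in 13 of 17 cases and rose in none, with a median of -1.63 relative to all rows (6 lower and 1 higher under scaling by the total). Kif15, a mitotic kinesin, had 2.35, 0.543 and 2.04 CPM at E17.5, against 41.2, 20.1 and 22.9 at E11.5. The 2 stages did not overlap, and the log2 change was -4.07 ± 0.50 (adjusted p = 7.78e-07). Cdc25b, a phosphatase that starts mitosis, changed by -3.01 ± 0.41 (adjusted p = 2.82e-06). Rows of Mdm2, Smc3 and Cep70 and 1 of 2 Cenps rows did not pass (-0.95, -0.93, 0.07 and -0.84).

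Rows of the translation machinery fell as a group, with 12 of 16 down, none up and a median of -1.56 relative to all rows, but 3 were lower and 2 higher under scaling by the total. Most are ribosomal protein genes, which have many near-identical pseudogenes, so their counts are uncertain. Rpl28 had 173, 99.5 and 169 CPM at E17.5, against 824, 848 and 902 at E11.5, with a log2 change of -2.54 ± 0.37 (adjusted p = 7.78e-06). Its E17.5 values were all below its E11.5 values by several-fold. Rpl29, Rpl31 and Rpl13 changed by -2.47, -2.06 and -2.05, and the calls of Rpl31, Rpl13 and Rps27 ended under scaling by the total, while Rpl27 turned to 0.13, which did not pass. Rpl13 overlaps Gm20388 on the same strand.

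RNA-binding proteins and splicing factors gave 7 rises and 13 falls in 47 rows, with a median of -0.35 relative to all rows, and 5 of the rises were rows of Rbfox3. Scaling by gene-row totals turned this split, to 23 rises and 9 falls. Pabpc1, whose A-rich stretch is shown above, had 7540.3, 4022 and 6012 CPM at E11.5, 2389, 1896 and 1566 at E13.5, 837, 1216 and 1376 at E15.5 and 642, 513 and 964 at E17.5. Libraries of E17.5 and E11.5 were far apart, with a log2 change of -3.05 ± 0.40 (adjusted p = 1.74e-06), and its 6 rows called Exon changed by -3.47 to -2.87. Pabpc4, a second cytoplasmic poly(A)-binding protein, changed by -3.68 ± 0.45, with 31.9, 10.7 and 25.1 CPM at E17.5, against 312, 333 and 224 at E11.5. Rbms2 and Rbms1, which bind single-stranded nucleic acid, changed by -4.76 and -4.65. All 4 of these passed the test (adjusted p = 8.62e-07 for Pabpc4, 5.59e-08 for Rbms2 and 1.72e-06 for Rbms1).

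Of 11 rows of mRNAs with known control through the 5' UTR, 4 fell and none rose, with a median of -0.53 relative to all rows. This is also the median of the 1126 rows called 5' UTR, so the list did not stand apart from them by it. Fth1 had 1481, 993 and 1045 CPM at E11.5, 325, 318 and 410.1 at E13.5, 179.7, 229 and 312 at E15.5 and 189, 99.3 and 196 at E17.5. The E17.5 and E11.5 libraries did not overlap, and the log2 change was -2.86 ± 0.39 (adjusted p = 2.83e-06). Igf2, Pim1 and Ppp1r15b were the other falls. Atf5, a stress factor translated through upstream reading frames, averaged 9.46 ± 4.096 CPM at E17.5 and 13.4 ± 1.97 at E11.5 (log2 change -0.51 ± 0.39, adjusted p = 0.28), and its row overlaps Nup62 and Il4i1 on the other strand. The remaining rows that did not pass were those of Mdm2, Sat1, Vegfa, Ifrd1, Tcf4 and Azin1, with log2 changes of -0.95, -0.41, 0.15, 0.41, 0.68 and 0.74. Scaling by the total gave 4 rises and 2 falls in this list.

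**Figure D3:**
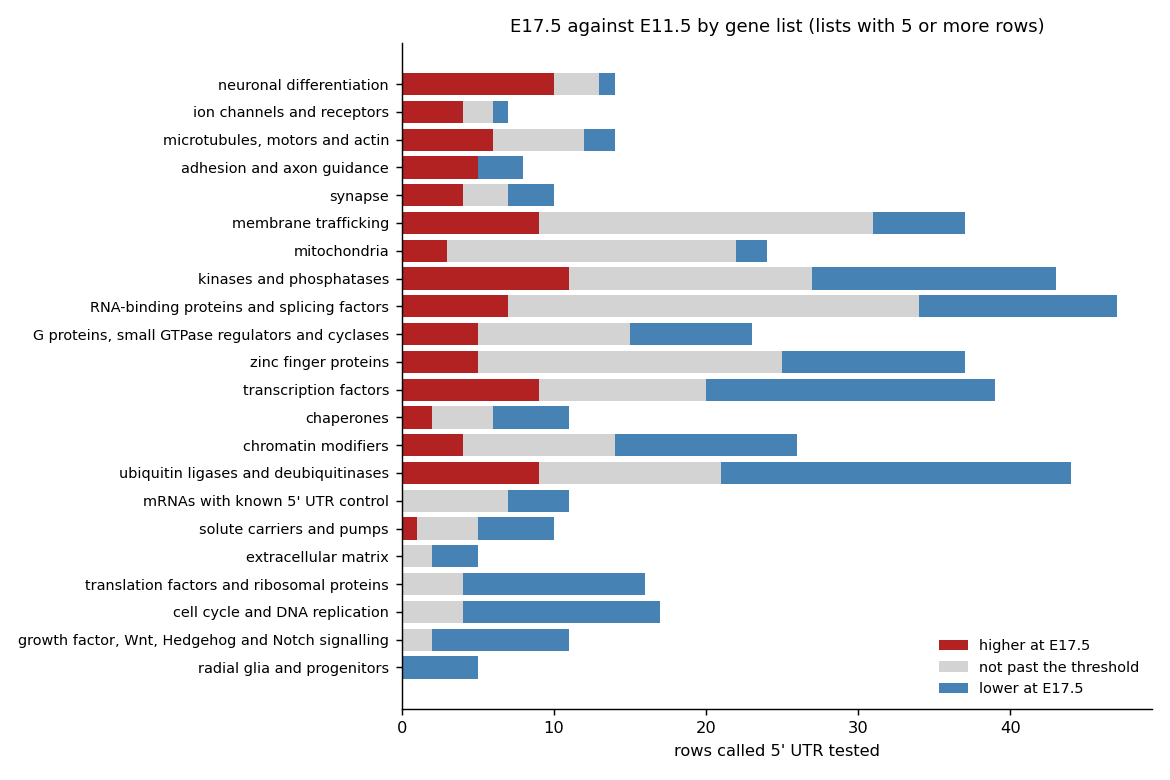
Number of rows called 5' UTR (horizontal axis) in each gene list with 5 or more rows tested, split into rows higher at E17.5 (red), not past the threshold (grey) and lower at E17.5 (blue) than at E11.5. Neuronal differentiation has 10 of 14 rows higher, radial glia 5 of 5 lower, cell cycle 13 of 17 lower and growth factor signalling 9 of 11 lower.

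Rises were led by genes of neurons. Of 14 rows of neuronal differentiation, 10 rose and 1 fell, with a median of 3.55 relative to all rows, and 11 rose under scaling by the total. Of the 10 rises, 5 are rows of 1 gene, Rbfox3. Nfix, a nuclear factor I protein that drives maturation of progenitors and neurons (chr8:84773172-84773576), had 0.589, 0.380 and 0.752 CPM at E11.5, 71.7, 54.5 and 35.5 at E13.5, 104, 121 and 87.4 at E15.5 and 68.3, 94.1 and 130.3 at E17.5. All 9 later libraries lay above 35 CPM and none of the E11.5 libraries reached 1, and the log2 change was 7.36 ± 0.55 (adjusted p = 1.49e-09). Mapt, which codes for the microtubule protein tau (chr11:104231513-104231657), had 3.83, 11.8 and 5.26 CPM at E11.5, 51.1, 80.4 and 60.3 at E13.5, 122, 185 and 84.7 at E15.5 and 518, 562 and 338 at E17.5. It was higher at each stage than at the one before without overlap, and changed by 6.10 ± 0.51 between E17.5 and E11.5 (adjusted p = 4.8e-09). Bcl11a and Nfib also rose, and Elavl4, an RNA-binding protein of neurons, was the 1 row that fell (-0.91, adjusted p = 0.044). The 2 rows of Map2 and that of Satb1 did not pass (0.02, -0.40 and -0.80).

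Rbfox3, the splicing factor known to histologists as NeuN, had 5 rows called 5' UTR spread along its long gene, and all 5 rose. The row at chr11:118505466-118505802 had 3.24, 7.21 and 1.503 CPM at E11.5, 50.8, 56.1 and 61.7 at E13.5, 114, 90.3 and 60.2 at E15.5 and 103, 163 and 78.9 at E17.5. Its E11.5 libraries lay far below the other 9, with a log2 change of 4.85 ± 0.50 (adjusted p = 9.32e-08). In 2 of the others the log2 changes were 4.46 and 3.57. Another had 200 counts at E17.5, against 3 at E11.5, which is 32.5-fold (95% exact interval 10.9 to 159) higher, and the fifth had 157 counts at E17.5, against 0 at E11.5, and was at least 25.5-fold higher.

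Lists of synapse, ion channel and adhesion genes had calls in both directions. Of 10 synapse rows 4 rose and 3 fell, of 7 rows of ion channels and receptors 4 rose and 1 fell (Trpm7), and of 8 rows of adhesion and axon guidance 5 rose and 3 fell. Medians were 0.57, 2.53 and 1.55 relative to all rows. Of the synapse calls, 2 of the rises are rows of Dlgap4 and 2 of the falls rows of Homer2. Scaling by gene-row totals gave 7 rises and 2 falls for synapse rows, 5 and 0 for ion channels and receptors and 5 and 2 for adhesion. Sez6, a protein of dendrites and synapses, had 100 counts at E17.5, against 0 at E11.5, and was at least 16.2-fold higher. Its highest stage was E13.5 (16.4, 10.99 and 34.0 CPM). Grik5, a kainate receptor subunit, had 194, 139 and 199 CPM at E17.5, against 25.3, 35.3 and 30.4 at E11.5, a log2 change of 2.55 ± 0.43 (adjusted p = 3.53e-05). Sstr3, a somatostatin receptor, was at least 7.14-fold and Lingo1, a leucine-rich repeat protein of axons, at least 14.3-fold higher at E17.5. Homer2, a scaffold of the postsynapse, went the other way, with 3.19, 2.53 and 3.30 CPM at E17.5, against 17.4, 15.6 and 25.6 at E11.5, and a log2 change of -2.68 ± 0.47 (adjusted p = 5.95e-05). Lrrn1 and the ephrins Efna5 and Efnb1 were the falls among adhesion rows.

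Of 14 rows of microtubules, motors and actin, 6 rose and 2 (Myo10 and Kif15) fell, with a median of 0.60 relative to all rows. Stmn3, a stathmin that binds tubulin, had 231, 109 and 203 CPM at E17.5, against 24.7, 23.5 and 35.3 at E11.5 (log2 change 2.70 ± 0.40, adjusted p = 9.55e-06). Klc1, a kinesin light chain, had 167, 187 and 256 CPM at E17.5, against 34.8, 45.6 and 40.6 at E11.5 (log2 change 2.34 ± 0.35, adjusted p = 9.4e-06). Neither row had overlapping libraries between the 2 stages. Rows outside these lists were among the largest rises. Jph4, a junctophilin that ties plasma membrane to endoplasmic reticulum, had 78.6, 137 and 135 CPM at E17.5, against 2.36, 0 and 2.25 at E11.5, a log2 change of 6.18 ± 0.58 (adjusted p = 2.46e-08). Ppp1r1b, the phosphatase inhibitor DARPP-32, had 324 counts at E17.5, against 2 at E11.5, which is 78.9-fold (95% exact interval 21.7 to 654) higher. Markers of ventral telencephalon and interneurons (Dlx2, Dlx5 and Gad1, 3 of 6 with rows) summed to 63.3 to 84.9 CPM of the unscaled totals in E11.5 libraries, 39.98 to 48.5 in E13.5, 119 to 144 in E15.5 and 220.2 to 275 in E17.5 libraries. Their part in the rises of Ppp1r1b and of the neuronal rows, whose values are TMM-scaled, was not tested. Snx32, a sorting nexin, had 458 counts at E17.5, against 3 at E11.5, which is 74.3-fold (95% exact interval 25.3 to 362) higher.

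**Figure D4:**
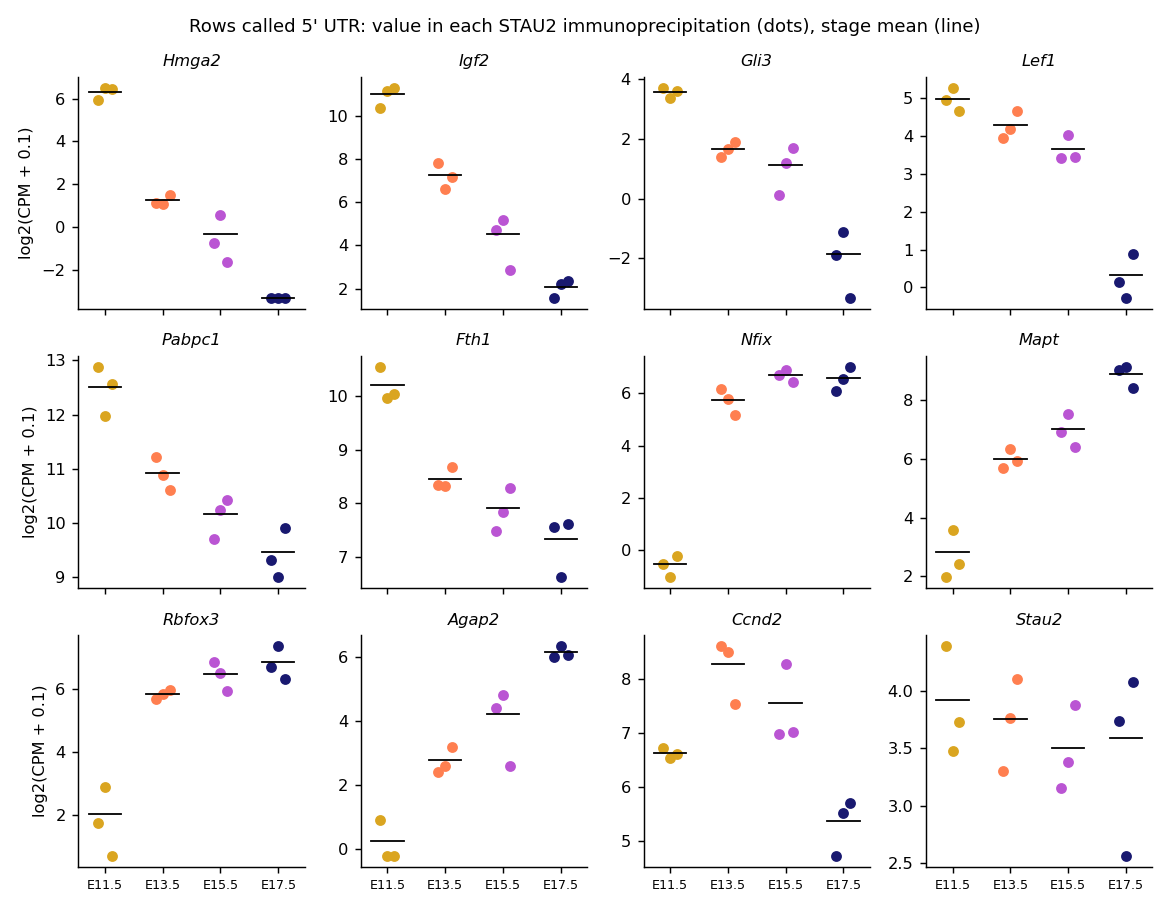
Value of 12 rows called 5' UTR in each immunoprecipitation, as log2 of CPM plus 0.1, with 1 dot per library and a line at the stage mean. Hmga2, Igf2, Gli3, Lef1, Pabpc1 and Fth1 are lower at E17.5 than at E11.5, Nfix, Mapt, Rbfox3 and Agap2 are higher, Ccnd2 peaks at E13.5, and the stages of Stau2 overlap.

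E13.5 against E11.5 shows how much of this was in place at the first interval. Of 1126 rows 225 changed (19.98%), 103 up and 122 down, beside 17.2% of all rows (9.36% up and 7.88% down). The median was -0.05, against 0.05 for all rows. This split turned on scaling, since 604 rows rose and 17 fell when the total of the gene rows set the scale, and on single libraries, since 144 rows passed with E13.5 replicate 1 left out and 147 with E11.5 replicate 1 left out. Neuronal differentiation already had 9 of 14 rows up, 5 of them rows of Rbfox3, and none down. Nfix rose with a log2 change of 6.50 ± 0.55 and Mapt with 3.21 ± 0.46 (adjusted p = 3.87e-08 and 4.32e-05). The 4 rises among 7 rows of ion channels and receptors at E17.5 (Sstr3, Kcnn2, Grik5 and Gria3) were past the threshold here too. Growth factor signalling had 5 of 11 rows down, Igf2 with -3.71 ± 0.50 (adjusted p = 2.4e-05).

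Some genes were highest in the middle of the series. Ccnd2, the cyclin D2 of cycling progenitors, had 105, 93.0 and 97.3 CPM at E11.5, 393, 361 and 185 at E13.5, 125, 311 and 129.8 at E15.5 and 26.0, 45.4 and 51.7 at E17.5. It rose at E13.5 (log2 change 1.67 ± 0.41, adjusted p = 0.00729) and at E17.5 fell below E15.5 (-2.20 ± 0.42, adjusted p = 0.00149), and the row overlaps 9330179D12Rik on the other strand. Its fall for E17.5 against E11.5 (-1.26 ± 0.41, adjusted p = 0.0135) did not hold without E17.5 replicate 1 (adjusted p = 0.0746). Tcf4, a basic helix-loop-helix factor of cortical neurons, averaged 11.6 ± 3.23 CPM in E11.5 libraries, 55.9 ± 16.3 in E13.5 libraries, 37.7 ± 10.97 in E15.5 libraries and 18.6 ± 1.89 in E17.5 libraries and rose at E13.5 (log2 change 2.26 ± 0.38, adjusted p = 0.000236). Auts2, a nuclear gene of neuronal development, had 3 rows that all rose at E13.5, by 1.98, 1.58 and 1.36. Other falls at this step were those of Scd1, a fatty acid desaturase (1.81 ± 0.443 CPM at E13.5 and 16.2 ± 3.46 at E11.5), of Efna5, an ephrin (2.56 ± 0.994 CPM at E13.5 and 22.6 ± 8.85 at E11.5), and of Rbpms2, an RNA-binding protein (2.07 ± 0.691 CPM at E13.5 and 18.1 ± 2.27 at E11.5), with adjusted p of 0.000159, 3.79e-05 and 4.34e-05.

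E15.5 against E13.5 gave 1 row past the threshold, beside 0.319% of all rows (0.276% down). That row was Igf2, with a log2 change of -2.75 ± 0.49 (adjusted p = 0.00641), and it did not pass without E15.5 replicate 1 (adjusted p = 0.0581). DESeq2 called 8 of 1136 rows, beside 0.7% of all rows, and 84 of 1126 had an unadjusted p below the threshold in edgeR, beside 6.84% of all rows. The median of the 1126 rows was -0.12, against 0.01 for all rows.

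E17.5 against E15.5 gave 134 rows (11.9%), 36 up and 98 down, beside 13.1% of all rows (5.89% up and 7.17% down). The median was -0.24, against -0.01 for all rows, and 72 rows passed with E17.5 replicate 1 left out, 78 with E15.5 replicate 3 and 88 with E17.5 replicate 3 left out. Falls were counted in 4 of 5 radial glia rows, 13 of 39 transcription factor rows, 6 of 11 growth factor signalling rows and 6 of 17 cell cycle rows. The first 3 of these lists share rows, such as those of Gli3. Lef1 fell with a log2 change of -3.40 ± 0.44 and Emx2 with -2.29 ± 0.38 (adjusted p = 3.39e-05 and 0.000396). Lhx9, a LIM homeodomain factor, had 2 counts at E17.5, against 72 at E15.5, which is 26.3-fold (95% exact interval 7.02 to 221) lower.

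Lsr, a lipoprotein receptor of cell contacts, had 9.43, 14.05 and 15.8 CPM at E11.5, 16.1, 12.6 and 10.1 at E13.5, 10.2, 15.8 and 4.12 at E15.5 and 0, 0.723 and 0.471 at E17.5. The 3 earlier stages overlapped and E17.5 lay below them all (log2 change against E15.5 of -4.59 ± 0.64, adjusted p = 6.05e-05). Gpc4, a heparan sulfate proteoglycan of progenitors, had 8.73, 4.52 and 9.43 CPM at E17.5, against 38.8, 73.7 and 68.6 at E15.5 (-2.99 ± 0.42, adjusted p = 8.07e-05). Adgrg1, an adhesion receptor of radial glia, had 4.70, 5.06 and 3.30 CPM at E17.5, against 26.8, 17.6 and 25.7 at E15.5 (-2.42 ± 0.36, adjusted p = 0.000126). Among the rises, Agap2, an Arf GTPase activator of neurons, had 1.77, 0.759 and 0.752 CPM at E11.5, 5.15, 5.93 and 8.95 at E13.5, 20.8, 28.1 and 5.90 at E15.5 and 63.0, 80.8 and 67.1 at E17.5 (1.95 ± 0.43, adjusted p = 0.00452). Mapt rose as well (1.86 ± 0.41, adjusted p = 0.00414). The rises of Snx32, Pde6h, Stac2, Arhgap23, Atp1b1 and Serp2 at this step were each lost without at least 1 library.

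Over the 4 stages 546 of 1126 rows changed (48.5%; edgeR F test), beside 46.6% of all rows. Of these, 311 (57.0%) had their highest mean in E11.5 libraries, 63 in E13.5, 44 in E15.5 and 128 (23.4%) in E17.5 libraries. Among all 6578 rows that changed, 42.4% were highest at E11.5 and 41.0% at E17.5. Over E13.5, E15.5 and E17.5 alone 261 of 1112 rows tested changed, beside 22.7% of all rows.

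Because 599 genes had both kinds of row, the 5' UTR could be set beside the 3' UTR of the same mRNA. In 594 of them with both tested, log2 changes were averaged over the rows of each kind in a gene. For E17.5 against E11.5 the 5' UTR mean was the lower in 409 genes (68.9%), with a median difference of -0.29 (quartiles -0.74 and 0.12). Both kinds of row moved largely together, and Pearson's r across the 594 genes was 0.90, as a description of rows that share libraries and mostly share an mRNA. The median difference was 0.03 for E13.5 against E11.5, -0.15 for E15.5 against E13.5 and -0.19 for E17.5 against E15.5. Per library, counts were summed over the rows of each kind in a gene, so the level of their ratio depends on row numbers. The median log2 ratio of 5' UTR to 3' UTR counts was -1.05, -1.16 and -1.02 in the E11.5 libraries and -1.18, -1.18 and -0.96 in E13.5. It was -1.26, -1.38 and -1.08 in E15.5 and -1.55, -1.53 and -1.27 in the E17.5 libraries. The E17.5 libraries lay below all 3 of E11.5, and stages next to each other overlapped. At every stage replicate 3 had the highest ratio, so the ratio varied with replicate number as well as with stage. This ratio needs no scaling between libraries.

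Few rows departed from the other rows of their gene by a test of their own. Of 859 rows in genes with at least 2 tested rows, 10 differed in their change from the rest of the gene (edgeR, E17.5 against E11.5), 9 lower and 1 higher, beside 1.47% of all such rows (0.871% lower and 0.601% higher). Zfand6, which codes for a ubiquitin-binding zinc finger protein, had 0.840, 0 and 2.04 CPM at E17.5, against 13.6, 10.6 and 12.4 at E11.5 in its 5' UTR row (chr7:84689680-84689824). That row changed by -3.60 ± 0.62, while the 3' UTR row, with 209 ± 80.3 CPM at E17.5 and 186 ± 68.2 at E11.5, changed by 0.17. The difference from the change fitted to the whole gene was -2.55 (adjusted p = 8.03e-05), and 2610206C17Rik overlaps on the other strand. Such differences from the gene, here and below, are natural logs, unlike the log2 changes of single rows. Atp2b4, a calcium pump of the plasma membrane, had 2.18, 5.61 and 4.87 CPM at E17.5, against 8.84, 23.5 and 10.9 at E11.5 in its 5' UTR row. Its 2 rows went opposite ways, with log2 changes of -1.76 in the 5' UTR and 1.68 in the 3' UTR. The 5' UTR row differed from the change fitted to the whole gene by -1.89 in natural logs (adjusted p = 0.000269). The fall of the 5' UTR row alone ended under scaling by the total.

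The 1 row that stood above its gene was that of Cks1b, a subunit of cyclin-dependent kinases. Its 5' UTR row had 11.4, 11.2 and 4.40 CPM at E17.5, against 15.9, 18.2 and 13.9 at E11.5, which did not pass (-0.83 ± 0.38, adjusted p = 0.069). Its 3' UTR row had 34.8 ± 13.7 CPM at E17.5 and 479.6 ± 168 at E11.5 and changed by -3.78 on the log2 scale. Relative to the change fitted to the whole gene, the 5' UTR row was higher by 1.85 in natural logs (adjusted p = 1.89e-05). Tet1 differed by -2.08 (adjusted p = 0.0014), its 3 Exon rows having changed by -1.72, -1.04 and -1.30. Serf2, whose row holds the start of a small protein linked to aggregation, differed by -1.29 (adjusted p = 0.00208), with 70.2, 39.1 and 44.3 CPM at E17.5, against 514, 288 and 378 at E11.5. On the log2 scale this 5' UTR row changed by -2.94. The Serf2 3' UTR rows that overlap Hypk on the same strand changed by -0.42 and -0.07, neither past the threshold. The remaining 3' UTR row of Serf2 does not overlap Hypk and fell by 1.998 (adjusted p = 9.49e-05). That row and the 5' UTR row overlap Serinc4 on the other strand. The part of Hypk reads in this difference was not tested.

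The other 5 rows rest on thinner data. Blcap had 0 counts at E17.5, against 124 at E11.5, at least 84.9-fold lower, but its only other row is an Intron row that overlaps Nnat on the other strand. The gene model 2610318N02Rik had 0 counts at E17.5, against 208 at E11.5, at least 142-fold lower, while its other rows changed by -4.74 to -3.34. Gtf2e2, a subunit of the general factor TFIIE, Wasf1, an actin regulator, and Tada3, a subunit of acetyltransferase complexes, differed by -1.93, -1.35 and -1.29 (adjusted p = 0.01, 0.0189 and 0.0311). Each of these 3 was lost in 3 or 4 of the 12 fits that left out a library.

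Where a gene had several 5' UTR rows they mostly agreed among themselves. Of 71 genes with 2 or more tested rows, 62 had rows of 1 sign for E17.5 against E11.5. In 25 genes all rows passed in 1 direction, in 19 some did, in 27 none did and in 0 did rows pass in both directions. The median gap between the highest and the lowest row was 0.44 on the log2 scale. Dlgap4, a scaffold of the postsynapse, had 4 rows, of which those at chr2:156745897-156746207 and chr2:156749109-156749425 rose (1.07 and 1.31, adjusted p = 0.0167 and 0.0058) and the other 2 did not pass (0.43 and 0.24). The call of the first did not hold without E11.5 replicate 3 (adjusted p = 0.0706) or without E17.5 replicate 3 (adjusted p = 0.109). Hnrnpd, an AU-rich element-binding protein, had 3 rows with changes of -0.07, -0.89 and 0.14, none past the threshold. Ube2k, a ubiquitin-conjugating enzyme, had 3 rows that fell (-1.34, -0.90 and -0.95), 2 of which turned to 0.27 and 0.24 under scaling by the total. None of the 3 calls held in every fit that left out a library: all 3 were lost without E11.5 replicate 2 (adjusted p = 0.0644, 0.0841 and 0.0715), the last 2 also without E17.5 replicate 2 (0.125 and 0.0906), and the middle one also without E11.5 replicate 1 (0.0807) or E17.5 replicate 3 (0.0588).

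GC content did not order the changes of 5' UTR rows as it ordered those of other rows. For E17.5 against E11.5 the median log2 change of 5' UTR rows was -0.91 in 49 rows with a GC under 40%, -0.45 in 140 rows of 40 to 50%, -0.16 in 236 of 50 to 60%, -0.35 in 320 of 60 to 70% and -0.70 in 324 of 70% or more. In the same bins 3' UTR rows gave -0.22, 0.06, 0.35, 0.73 and 1.07, a higher change in each bin than in the one before. Exon rows gave -0.47, -0.22, 0.08, 0.34 and 0.14. At 70% or more the gap between 5' UTR and 3' UTR rows was thus widest, though only 73 rows called 3' UTR were that rich in GC. Spearman's rho between GC and log2 change was -0.06 over 1069 rows called 5' UTR, 0.18 over 6518 called 3' UTR and 0.17 over 5394 called Exon, given as descriptions of rows that share libraries.

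**Figure D5:**
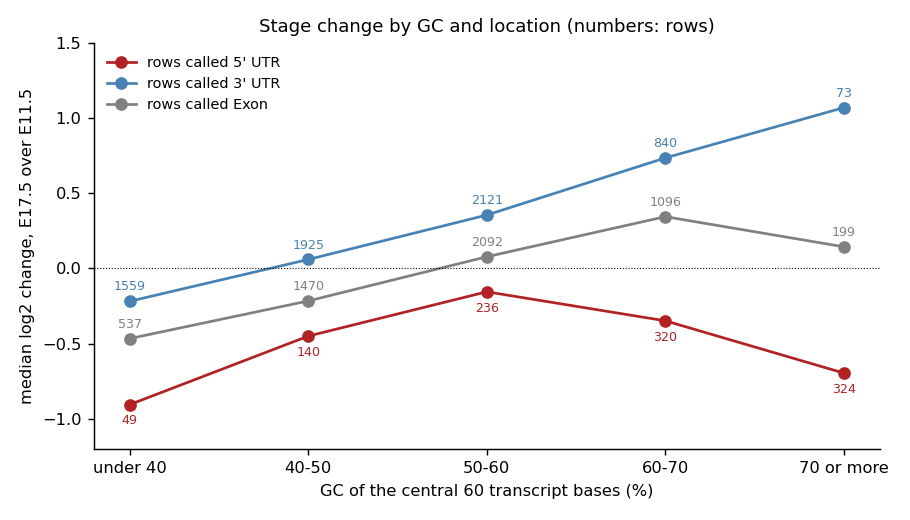
Median log2 change of E17.5 over E11.5 (vertical axis) by the GC percentage of the central 60 transcript bases (horizontal axis), for rows called 5' UTR, 3' UTR and Exon, with the number of rows at each point. The 3' UTR line climbs over the bins to 1.07, while the 5' UTR line stays below 0 and is -0.70 in the richest bin.

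The mRNA of STAU2 itself had a 5' UTR row (chr1:16518977-16519381), with 20.9, 11.01 and 13.2 CPM at E11.5, 9.74, 13.4 and 17.1 at E13.5, 8.81, 10.3 and 14.6 at E15.5 and 13.3, 5.79 and 16.8 at E17.5. All stages overlapped, and E17.5 against E11.5 gave a log2 change of -0.33 ± 0.41 (adjusted p = 0.511). Of its 5 rows called 3' UTR 1 rose (log2 change 1.99, adjusted p = 0.000155) and the other 4 did not pass (0.11 to 0.61). Stau1, its paralog, had a 5' UTR row with 10.8 ± 3.85 CPM in E11.5 libraries, 13.8 ± 3.01 in E13.5 libraries, 13.2 ± 5.47 in E15.5 libraries and 11.501 ± 3.36 in E17.5 libraries and a log2 change of 0.09 ± 0.40 (adjusted p = 0.862).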

How the data were processed

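The authors deposited 1 table of merged peaks with whole-number counts per peak and strand for 12 libraries, and a peak score per peak, used here only to keep peaks at or above the median score. Per the submitters' processing notes, HOMER 4.10 was among the tools, with the builds mm10 and GRCm38. An aligner, a counting tool and peak settings were not given in the sources used here. Columns were read as the immunoprecipitations, as stated above. Nothing in the labels ties replicates to separate animals, and p-values then measure only the spread between these libraries, which may be technical.

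All 14297 gene rows were fitted with edgeR 4.0.16 in R 4.3.3: TMM, filterByExpr, quasi-likelihood F test, 4 stages in 1 fit without a replicate block, Benjamini-Hochberg adjustment at 0.05 over 14106 rows. A row was set against the other rows of its gene with diffSpliceDGE, whose differences are natural logs against the change fitted to the whole gene. Variation between libraries of a stage, beyond counting error, had a common coefficient of 0.342. The edgeR steps were also run on simulated counts with few rows changed, equally up and down. That run does not address the scaling of the E11.5 libraries. Folds against a stage with 0 counts are bounds from 3 counts over the 3 libraries, and ratios with 1 to 3 counts have exact binomial 95% intervals, both for counting error only. Ratios of 5' UTR to 3' UTR rows used a pseudocount of 0.5. Positions in genes and transcript bases come from GENCODE vM21, energies from ViennaRNA 2.7.2 on the central 60 transcript bases of a row, with 40 as the alternative (median GC 62.5%, energy -8.8 kcal/mol).

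Members and lists were chosen with earlier results of these data known. Rows named are the 10 largest rises and falls per comparison past the threshold whose libraries do not overlap (gene models and repeats skipped), the 10 within-gene calls, the 10 highest mean CPM, up to 4 per list of the 24 gene lists by smallest p over the stages, rows of the 10 genes with most rows, and a few fixed genes. Not all are described. Other genes named without values were picked after their calls were seen. Alternatives were DESeq2 1.42.0, its size factors, scaling by the gene-row total, no filter, a replicate block, the peak score and each library left out. E17.5 against E13.5 and a fit of 3 stages were added after seeing the data. Some rows counted in the lists are not reported by name here.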

Additional observations from a re-analysis of the deposited data

How the results depend on the processing

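Under DESeq2, its size factors in edgeR, no filter on low counts and the replicate block, the numbers of 5' UTR rows past the threshold stayed within 1.5 times of those given, except that E15.5 against E13.5 gave 3 with the block and 8 with DESeq2. With the replicate block E17.5 against E11.5 gave 640 rows and E17.5 against E15.5 gave 179. Replicate numbers were not taken to pair the libraries, since only 11 of 18 same-numbered pairs correlated above 0.1 in their deviations from the stage means (range -0.18 to 0.52) and 4 of 12 libraries correlated best with their own number. As a hint from the data, not the design, same-numbered pairs had a median of 0.14, against -0.17 for 36 pairs of different numbers (9 above 0.1). Peaks at or above the median score, with fewer rows tested, gave 310, 136 and 58 rows for E17.5 against E11.5, E13.5 against E11.5 and E17.5 against E15.5, 275 over the 4 stages and 3 within genes. Scaling by gene-row totals gave 621 for E13.5 against E11.5. Against E13.5 in place of E11.5, 322 rows changed at E17.5 and 6 within genes, and 261 changed over the 3 later stages. Leaving out 1 library at a time gave 530 to 623, 144 to 234, 0 to 3 and 72 to 142 rows for the 4 comparisons in the order described, 477 to 554 over the stages and 7 to 11 within genes. In those fits the share of counts was 2.97% to 3.64%, 5.42% to 5.76%, 5.45% to 5.98% and 4.58% to 4.92% from E11.5 to E17.5, and the 5' to 3' UTR ratio -1.11 to -1.04, -1.18 to -1.07, -1.32 to -1.17 and -1.54 to -1.40. Without intron rows the shares were 8.55%, 8.19%, 7.66% and 6.61%, and with the 10 highest rows of the whole table left out 8.21%, 7.98%, 7.53% and 6.45%. Of 177 results for named rows, 152 kept their side of the threshold in all 12 such fits, 167 of 167 did with DESeq2, and scaling by the total ended 24 calls and turned 4, namely Rpl27 (0.13), Pcgf2 (0.19) and 2 rows of Ube2k (0.27 and 0.24). Causes were not tested. The lowest median count per 5' UTR row was 29, in an E11.5 library, which limits precision.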

Other observations

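Other gene groups had mixed or few calls for E17.5 against E11.5, given here as values. Beside them, the 1126 rows called 5' UTR had a median of -0.53 relative to all rows, with 17.9% up and 36.5% down. Ubiquitin ligases and deubiquitinases had 9 of 44 rows up and 23 down, with a median of -0.94 relative to all rows. Mib2, an E3 ligase of Notch ligands, had 22.5, 25.7 and 23.7 CPM at E17.5, against 0.884, 2.28 and 1.503 at E11.5, and rose (log2 change 3.96 ± 0.51, adjusted p = 1.45e-06), while Ube2f, the conjugating enzyme for Nedd8, had 3.86, 5.06 and 4.71 CPM at E17.5, against 36.2, 35.7 and 20.7 at E11.5, and fell (-2.76 ± 0.46, adjusted p = 3.31e-05). Kinases and phosphatases had 11 of 43 up and 16 down, a median of -0.42 relative to all rows. Mast1, a microtubule-associated kinase, had 37.6, 22.1 and 32.8 CPM at E17.5, against 0.589, 2.66 and 0.376 at E11.5, and rose (4.70 ± 0.54, adjusted p = 3.79e-07), and Nek7, a mitotic kinase, had 2.18, 0.904 and 0.629 CPM at E17.5, against 15.3, 17.46 and 31.9 at E11.5, and fell (-4.10 ± 0.50, adjusted p = 7.16e-07). Zinc finger proteins had 5 of 37 up and 12 down, a median of -0.79 relative to all rows. Zfp36l2, which binds AU-rich elements, averaged 3.17 ± 0.703 CPM at E17.5 and 22.4 ± 4.48 at E11.5 and fell (-2.82 ± 0.38, adjusted p = 2.63e-06).

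Membrane trafficking had 9 of 37 rows up and 6 down, a median of 0.30 relative to all rows, and G proteins and small GTPase regulators 5 of 23 up and 8 down, a median of -0.45. Gng5, a G protein gamma subunit, had 3.69, 4.70 and 7.54 CPM at E17.5, against 81.9, 37.2 and 63.5 at E11.5, and fell (-3.51 ± 0.42, adjusted p = 6.77e-07). Of 24 mitochondrial rows 19 did not pass, 3 rose (Timm9, Tomm40 and Mrps12) and 2 fell (Chchd7 and Cox6b2), with a median of 0.09 relative to all rows. Solute carriers and pumps had 1 of 10 up and 5 down, extracellular matrix 3 of 5 down and none up, and chaperones 2 of 11 up and 5 down, with medians of -1.24, -2.49 and -0.33 relative to all rows. The sodium pump subunits Atp1b1 and Atp1b3 went opposite ways, 4.23 and -2.18 (adjusted p = 7.79e-06 and 7.42e-05). Scaling by gene-row totals moved most of these splits upwards, to 15 up and 7 down for ubiquitin genes, 20 and 4 for kinases, 17 and 3 for zinc fingers, 23 and 1 for trafficking, 10 and 4 for G proteins, 17 and 1 for mitochondria, 4 and 1 for solute carriers, 2 and 3 for matrix and 5 and 1 for chaperones.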
